A study of Mus musculus with 10 samples.

Results

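The 47 genes described here encode the contractile machinery (the sarcomere), the calcium handling proteins and part of the energy supply of skeletal muscle fibres. They were taken by gene symbol from a list of muscle genes drawn up with earlier results of these data known, and all 47 were found among the 24331 genes of the table. RNA had been sequenced from the full thickness of the back skin of wild type male C57BL/6 mice aged 7 to 8 weeks. In every group new hair growth had been started by waxing the back. Cyclophosphamide, a prodrug whose products alkylate DNA, was injected at 150 mg/kg into the peritoneum on day 9 after waxing, and skin was collected before the dose (0h) or 6h, 12h, 24h or 48h later. Each time has 2 libraries, which makes 10. The samples used here hold no group given vehicle, so time after the dose and time after waxing cannot be told apart. Separate mice behind the libraries of 1 time are not stated in the labels, so every p-value below measures only the spread between libraries, which may be technical.

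Striated muscle reaches the skin samples through the panniculus carnosus, the thin sheet of mostly fast fibres that lies under the dermis of the mouse back. In each fibre, thick filaments of myosin pull on thin filaments of actin when calcium released from the sarcoplasmic reticulum binds troponin, and calcium pumps and buffers then end the contraction. Fast and slow fibres build the same apparatus from different members of the same gene families, so myosin, troponin, calcium pump and calcium store genes come in fast and slow versions.

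Levels are in FPKM (fragments scaled to transcript length and to library size), a scale per length on which levels of different genes can be set side by side, and the libraries of a time carry the numbers 2 and 3. Whenever values of a time are given as a pair, library 2 stands before library 3. The summed FPKM of a library lay between 862653 and 978550, the relative depth estimated from low values between 1 and 1.42, and the correlation of log2(FPKM + 1) between 0.984 and 0.989 within a time and between 0.966 and 0.987 across times. The depth estimate is rough. It is the most frequent ratio of low values to those of 0h library 2, and in the other libraries 8 to 32 genes of 315 to 419 held that ratio. A list of 7 heart muscle genes gave a mixed picture. Tnnt2, Tnni3 and Myl4 reached 15.8, 4.24 and 13.7 FPKM. The highest values of the others were 0.0890 FPKM for Myh6, 0.686 for Nppa, 1.16 for Myl7 and 0.0413 for Ryr2. The library pairs were not alike in their muscle signal. At 12h, 39 of the 45 tested genes were higher in library 3 than in library 2, with a median difference of 0.46 on the log2 scale, against 13 of 45 at 0h.

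Muscle RNA was a visible part of the skin before the dose. Tnnc2, the fast troponin C, averaged 3182 ± 158 FPKM at 0h (SD, n = 2) and ranked 56th among all genes, followed among the 47 by Acta1, Tnnt3, Mylpf, Ckm and Tnni2. The summed FPKM of the 47 genes made up 2.37% and 2.22% of the library at 0h, 1.28% and 1.51% at 6h, 1.01% and 1.44% at 12h, 1.29% and 1.24% at 24h, and 0.996% and 1.06% at 48h. All 8 later libraries lay below both 0h libraries. In whole skin, fewer muscle fibres in the piece and less RNA per fibre cannot be told apart.

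Changes were tested with limma on log2(FPKM + 1) over the 13625 genes that reached 1 FPKM in 2 or more libraries, and a gene passed at an adjusted p (Benjamini-Hochberg over those genes, two-sided) under 0.05. Of the 47 genes 45 were tested. Myh7, the slow myosin heavy chain, reached at most 0.0652 FPKM, and Tnnc1, the slow troponin C, reached 1 FPKM in 1 library only, at 1.10.

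More of the muscle genes passed as lower at each later time, and 1 passed as higher, although 42 of the 45 already had a log2 fold change below 0 at 6h. At 6h, 1 of the 45 passed, Lmod2, whose product lengthens actin filaments, and it was higher (0.0294% of all genes tested were higher and 0.0147% lower, 0.044% in both directions). At 12h, 9 fell and 1 rose (0.8% of all genes were lower and 0.279% higher, 1.08% in both directions). At 24h, 20 fell and 1 rose (1.94% lower and 1.37% higher, 3.32% in both directions). At 48h, 25 fell and 1 rose (4.12% lower and 4.8% higher, 8.92% in both directions). The riser was Lmod2 each time. The median log2 fold changes of the 45 at the 4 later times in order were -0.61, -0.84, -0.81 and -1.09, beside 0.04, -0.07, -0.10 and -0.01 for all genes tested. Both libraries lay below both 0h libraries in 32 of the 45 genes at 6h (16.4% of all genes), in 39 at 12h (32.3%), in 34 at 24h (37.2%) and in 36 at 48h (28.0%). Both lay above in 1 gene at 6h (23.1% of all genes), 1 at 12h (15.9%), 3 at 24h (15.8%) and, at 48h, 4 (27.0%). An F test over all times called 24 of the 45 (7.35% of all genes), and 27 genes passed there or in a comparison with 0h. The shares of all genes given here are also those to set beside the counts of smaller groups below.

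The counts at 6h, 12h and 24h changed with the library left out. A fit without 1 library has a single value at that time and less power. A lost call therefore does not show that 1 library made it. With 0h library 2 left out the counts were 0 (6h), 0 (12h) and 0 (24h), and with 0h library 3 left out they were 0, 1 and 4. With 12h library 2 left out the count at 12h was 0, and it was 17 when either 6h library was left out. The count at 24h was 11 or 2 when 24h library 2 or 3 was dropped, and 13 when 48h library 2 was dropped. The call of Lmod2 at 6h was lost when 6h library 3 or either 48h library was dropped. The F test called 12 genes when either 0h library was dropped, and 14 or 13 when 48h library 2 or 3 was dropped. The count at 48h stayed between 20 and 29 whichever library was left out. With median-of-ratios scaling, 3 genes fell and 1 rose at 12h, and over all genes the calls there were 41 higher and 49 lower, against 38 higher and 109 lower as deposited. Over all genes at 24h they were 304 higher and 162 lower with that scaling, against 187 and 265 as deposited.

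**Figure D1:**
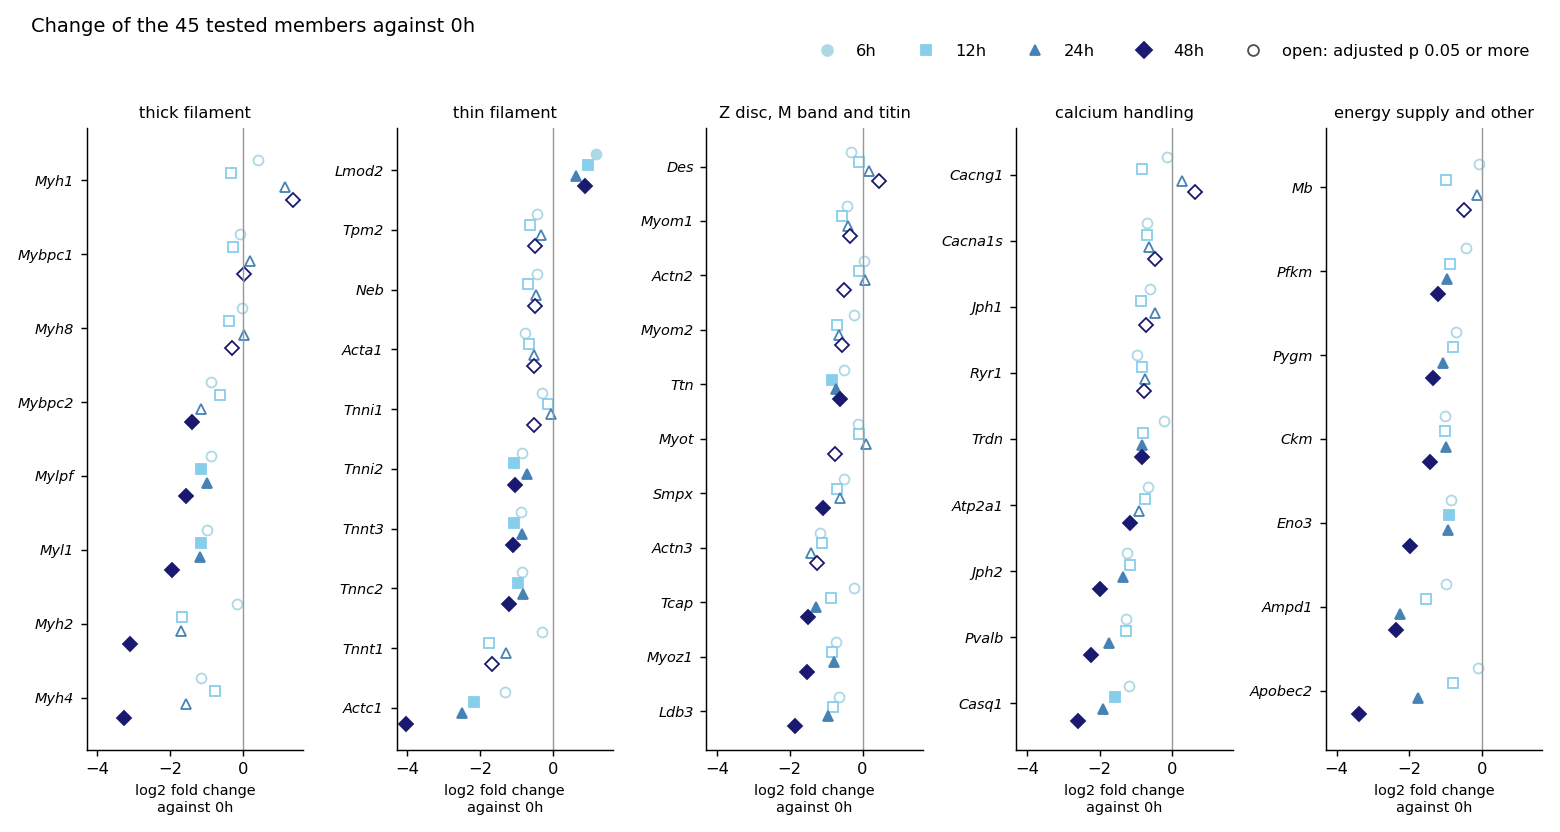
Log2 fold change of each of the 45 tested muscle genes at 6h, 12h, 24h and 48h against 0h, by role, on the log2(FPKM + 1) scale; filled symbols passed an adjusted p of 0.05 and open ones did not. Most symbols lie left of 0, the leftmost being the 48h diamond of Actc1 at -4.02, while Lmod2 lies right of 0 at all 4 times with filled symbols.

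Between later times, 0 of the 45 genes passed from 6h to 12h (limma; 0.0% of all genes, and 6 of the 45 at an unadjusted p under 0.05) and 0 from 12h to 24h (0.022% of all genes, and 5 of the 45 at an unadjusted p under 0.05). From 24h to 48h 4 genes fell further, Myl1, Ldb3, Eno3 and Apobec2 (1.04% of all genes were lower and 1.22% higher, 2.26% in both directions). That count was 0 when 24h library 2 or either 48h library was left out, and 2 when either 0h library or 6h library 2 was left out.

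Among the thick filament genes, 5 of 8 tested were lower at 48h, 2 at 12h and 2 at 24h, and none was higher at any time. Neighbouring genes on chromosome 11 encode the fast myosin heavy chains: Myh2 for type IIa fibres (chr11:67171027-67197517), Myh1 for type IIx (chr11:67200052-67224575) and Myh4 for type IIb, the fastest (chr11:67238029-67260446), all on the plus strand of GRCm38 in GENCODE M21. Their promoters are shown because these adjacent genes moved differently. Each sequence runs 5′ to 3′ from 250 to 51 bases before the RefSeq start (GRCm38.p6, plus strand, chr11:67170777-67170976, chr11:67199852-67200051 and chr11:67237562-67237761), with matches to the MEF2 box, the CArG box and the E-box (CANNTG), searched on both strands, in capitals.
Myh2: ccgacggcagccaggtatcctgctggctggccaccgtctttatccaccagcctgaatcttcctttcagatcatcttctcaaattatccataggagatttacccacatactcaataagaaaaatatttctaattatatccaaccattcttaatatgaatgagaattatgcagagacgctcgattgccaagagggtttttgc
Myh1: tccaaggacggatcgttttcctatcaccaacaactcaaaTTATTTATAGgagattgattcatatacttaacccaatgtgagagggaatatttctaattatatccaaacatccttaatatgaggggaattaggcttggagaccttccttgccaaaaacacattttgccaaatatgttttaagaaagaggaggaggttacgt
Myh4: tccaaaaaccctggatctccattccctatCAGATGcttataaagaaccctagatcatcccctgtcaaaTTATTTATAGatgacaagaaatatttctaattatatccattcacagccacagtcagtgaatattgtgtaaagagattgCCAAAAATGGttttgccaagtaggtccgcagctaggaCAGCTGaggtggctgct
The 10 bases of the MEF2 box, the site of the MEF2 muscle transcription factors, were the same in Myh1, 211 to 202 bases before the start, and in Myh4, 182 to 173 bases before it. Myh4 also held a CArG box, the site of serum response factor, and 2 E-boxes, the sites of MyoD and related factors, and no match overlapped another in these windows. Of 35 muscle genes with an entry, 5 (14.3%) held a MEF2 box in this window, against 2.46% of 27025 mouse promoters, 3 (8.57%) a CArG box, against 1.08%, and 24 (68.6%) an E-box, against 58.9%. A match is a string of letters and not a measured site.

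Myh4 had 418 and 419.8 FPKM at 0h, 107 and 333 at 6h, 188 and 321 at 12h, 103 and 190.4 at 24h, and 63.4 and 27.9 at 48h. Every later library lay below both 0h libraries, but the libraries of 6h, 12h and 24h differed widely, and only 48h passed (log2 fold change -3.28 with SE 0.53, adjusted p = 0.00561; adjusted p = 0.0501 without 0h library 2). Myh2 had 40.7 and 16.9 FPKM at 0h, 28.1 and 19.3 at 6h, 5.12 and 11.1 at 12h, 5.69 and 9.57 at 24h, and 1.94 and 2.46 at 48h. It was low in all 6 libraries from 12h on, and 48h passed (log2 fold change -3.10 with SE 0.42, adjusted p = 0.00237). Myh1 had 81.6 and 74.2 FPKM at 0h, 168 and 64.3 at 6h, 53.7 and 69.9 at 12h, 179.6 and 167 at 24h, and 142 and 296 at 48h. It was above both 0h libraries in all 4 libraries of 24h and 48h and in 1 library of 6h, yet no time passed (log2 fold change 1.39 with SE 0.41, adjusted p = 0.0657 at 48h). In the FPKM summed over these 3 genes, Myh4 held 77.4% and 82.2% at 0h, 35.2% and 80.0% at 6h, 76.1% and 79.9% at 12h, 35.8% and 52.0% at 24h, and 30.5% and 8.55% at 48h. Myh1 held 15.1% and 14.5% at 0h, 55.5% and 15.4% at 6h, 21.8% and 17.4% at 12h, 62.3% and 45.4% at 24h, and 68.5% and 90.7% at 48h. The order of Myh4 and Myh1 was thus reversed in both 48h libraries and in library 2 of 6h and 24h. These shares were computed after the values had been seen and carry no test. Of the runs of 50 bases in their transcripts 26.7% in Myh1, 26.9% in Myh2 and 18.9% in Myh4 also occur in transcripts of another gene, so the split of reads among them is uncertain.

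**Figure D2:**
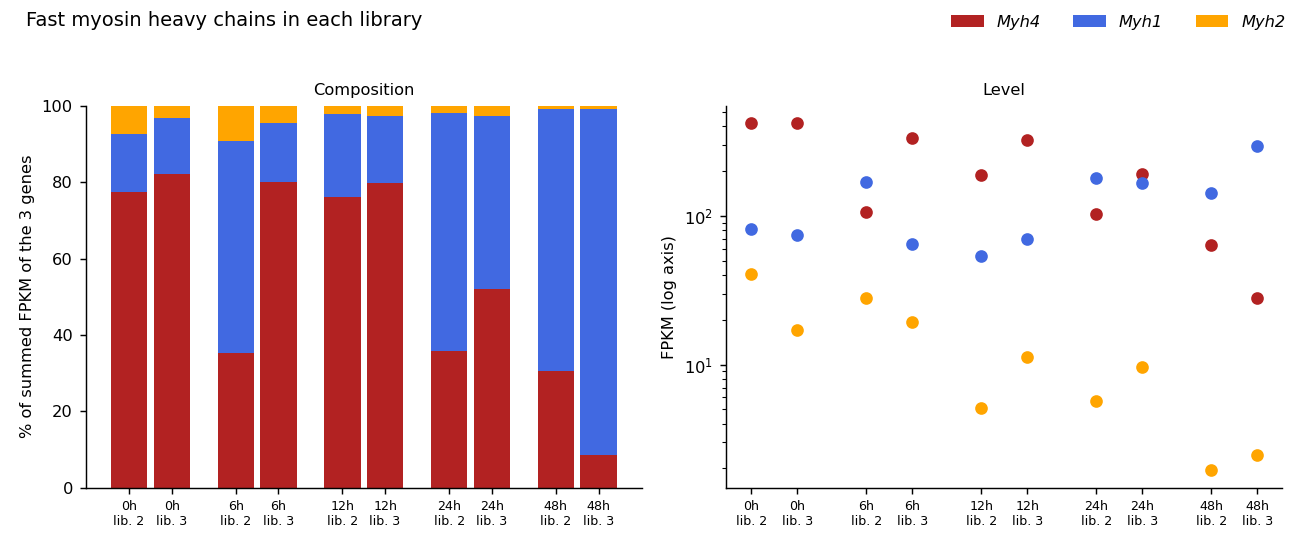
Left, percent of the summed FPKM of Myh4, Myh1 and Myh2 held by each gene in each of the 10 libraries; right, the FPKM of each gene in each library on a log axis. Myh4 holds 77.4% and 82.2% at 0h and 30.5% and 8.55% at 48h, with 6h library 2 (35.2%) apart from 6h library 3 (80.0%).

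The other thick filament genes that passed were light chains and a binding protein of fast fibres. Mylpf, the fast regulatory light chain, had 2179 and 2062 FPKM at 0h, 1218 and 1091 at 6h, 779 and 1184 at 12h, 1062 and 1074 at 24h, and 684 and 757 at 48h. Its 8 later libraries all lay below the 0h pair, and it passed at 12h, 24h and 48h (log2 fold change -1.56 with SE 0.18, adjusted p = 0.00114 at 48h). Myl1, the fast essential light chain, had 1666 and 1553 FPKM at 0h, 818 and 812 at 6h, 613 and 843 at 12h, 727 and 682 at 24h, and 381 and 456 at 48h. It too passed at 12h, 24h and 48h (log2 fold change -1.95 with SE 0.16, adjusted p = 0.000284 at 48h) and fell again between 24h and 48h (log2 fold change -0.75, adjusted p = 0.0468); 23.4% of its runs of 50 bases occur in the pseudogene Mylf-ps. Mybpc2, the fast myosin binding protein C, had 107 and 119 FPKM at 0h, 41.7 and 86.9 at 6h, 56.7 and 90.8 at 12h, 46.7 and 52.8 at 24h, and 45.2 and 39.4 at 48h. It passed at 48h only (log2 fold change -1.40 with SE 0.30, adjusted p = 0.0208), and the call was lost when either 0h or either 48h library was left out, where the highest adjusted p was 0.127. Its slow counterpart Mybpc1 lay between 22.2 and 36.0 FPKM over all libraries, and its groups overlapped at every time. Myh8, the perinatal myosin, was between 0.129 and 1.63 FPKM over all libraries and passed at no time.

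Among the thin filament genes, 4 of 10 tested were lower and 1 was higher at 12h, 24h and 48h alike. Actc1, the cardiac alpha actin that is also made in immature and regenerating skeletal fibres, had 27.2 and 21.5 FPKM at 0h, 8.44 and 9.90 at 6h, 2.75 and 7.25 at 12h, 4.41 and 2.69 at 24h, and 1.19 and 0.0962 at 48h. It had the largest fall of the 45 genes at 12h, 24h and 48h (log2 fold change -4.02 with SE 0.39, adjusted p = 0.00045 at 48h), and each later library was under 10 FPKM. Acta1, the actin of mature skeletal fibres, was far more abundant, with 3031 and 2422 FPKM at 0h, 1391 and 1839 at 6h, 1427 and 2069 at 12h, 1800.5 and 2031 at 24h, and 1736 and 2094 at 48h. All its later libraries were below the 0h pair, but no time passed (log2 fold change -0.51 with SE 0.22, adjusted p = 0.181 at 48h).

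Lmod2, which encodes leiomodin-2, a starter and lengthener of sarcomeric actin filaments, was the 1 gene that rose. It had 7.60 and 8.91 FPKM at 0h, 18.8 and 21.4 at 6h, 16.8 and 17.7 at 12h, 13.8 and 12.8 at 24h, and 14.9 and 17.0 at 48h. All 8 later libraries lay above both 0h libraries, and it passed at 6h (log2 fold change 1.19 with SE 0.13, adjusted p = 0.0239), 12h (log2 fold change 0.98, adjusted p = 0.015), 24h (0.63, adjusted p = 0.0318) and 48h (0.87, SE 0.13, adjusted p = 0.00402). Its promoter is shown because it was the only one of the 45 genes past the threshold upward against 0h (plus strand of GRCm38.p6, chr6:24597521-24597720, the same window and capitals).
Lmod2: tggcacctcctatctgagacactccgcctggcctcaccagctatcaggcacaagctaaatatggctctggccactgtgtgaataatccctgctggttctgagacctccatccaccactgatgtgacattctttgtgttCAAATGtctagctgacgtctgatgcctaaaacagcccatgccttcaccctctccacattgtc
The window held 1 E-box, 112 to 107 bases before the start, and no match to the MEF2 or CArG box.

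The fast troponin subunits, which make the thin filament answer to calcium, fell together. Tnnt3, the fast tropomyosin-binding subunit, had 2542 and 2369 FPKM at 0h, 1232 and 1465 at 6h, 989.6 and 1398 at 12h, 1346 and 1382 at 24h, and 1116 and 1196 at 48h. Tnni2, the fast inhibitory subunit, had 2192 and 2003 FPKM at 0h, 1149 and 1192 at 6h, 949 and 1068 at 12h, 1432 and 1156 at 24h, and 1017 and 1034 at 48h. Tnnc2, the fast calcium-binding subunit, had 3294 and 3069.8 FPKM at 0h, 1982 and 1594 at 6h, 1361 and 1947 at 12h, 1900.5 and 1741 at 24h, and 1324 and 1449.8 at 48h. In each of the 3 genes both libraries of every later time lay below both 0h libraries, and 12h, 24h and 48h passed. For 48h the log2 fold changes were -1.09 for Tnnt3 (SE 0.17, adjusted p = 0.0052), -1.03 for Tnni2 (SE 0.14, adjusted p = 0.00261) and -1.20 for Tnnc2 (SE 0.18, adjusted p = 0.00469). Exons of Ube2c, on the other strand, cover 74.0% of the exon bases of Tnnc2, and whether the counting used strand is not given in the sources used here. Ube2c itself was between 27.4 and 90.3 FPKM, far under Tnnc2.

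The slow troponin genes were low and uneven. Tnnt1, the slow tropomyosin-binding subunit, had 14.9 and 3.34 FPKM at 0h, 11.8 and 2.58 at 6h, 1.10 and 1.92 at 12h, 3.95 and 1.36 at 24h, and 1.92 and 1.33 at 48h. Library 2 was several times higher than library 3 at 0h and 6h, and no time passed (adjusted p = 0.151 at 48h, log2 fold change -1.67, SE 0.66). Tnni1, the slow inhibitory subunit, was between 5.72 and 14.3 FPKM over the 10 libraries, with overlapping groups at every time. Tpm2, a tropomyosin, and Neb, the giant nebulin along the thin filament, were below the 0h pair in all later libraries without passing, with log2 fold changes at 48h of -0.48 (adjusted p = 0.1) and -0.48 (adjusted p = 0.0819).

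**Figure D3:**
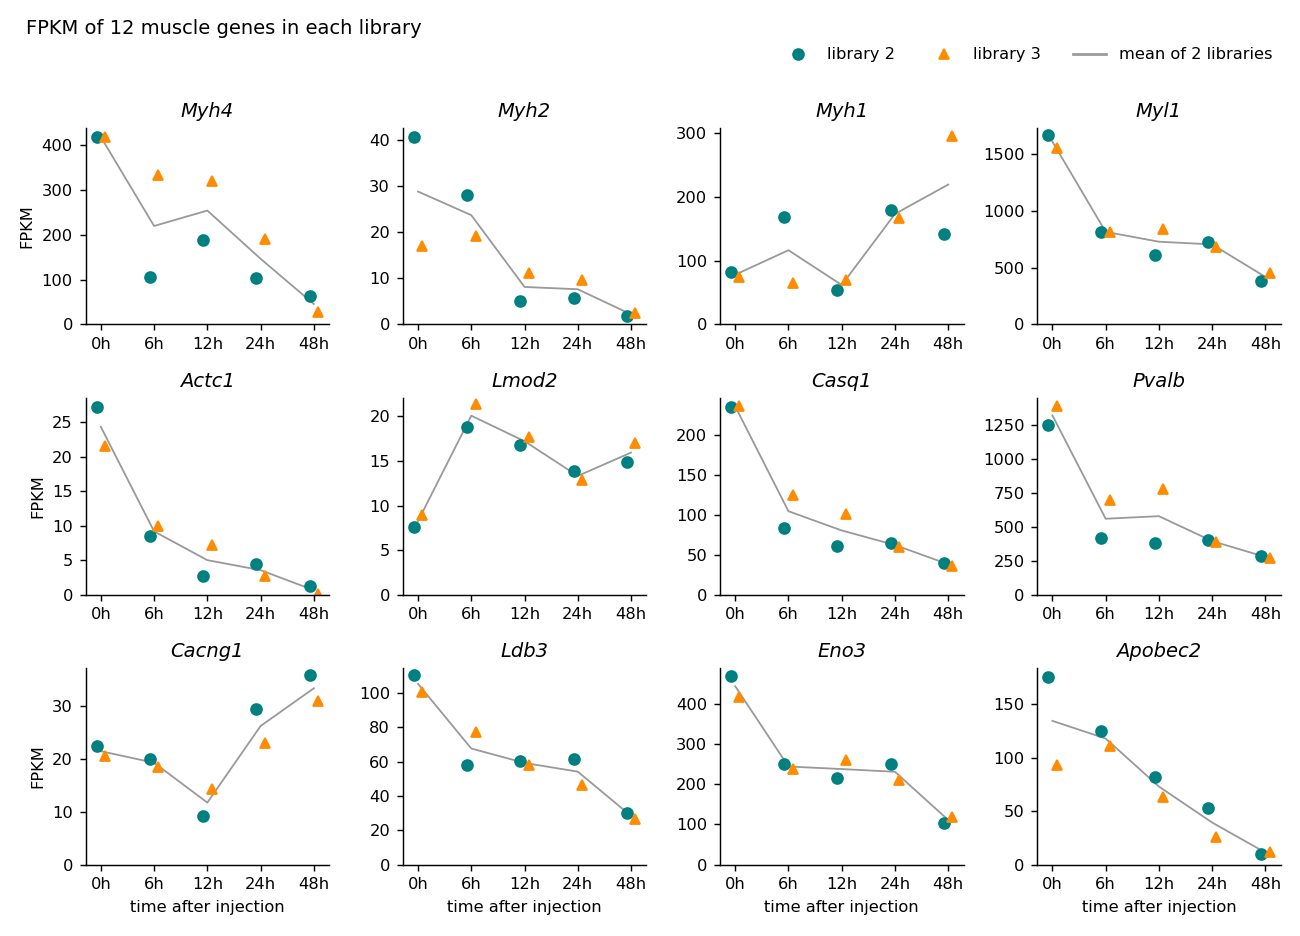
FPKM of 12 of the muscle genes in each library by time after the injection, with circles for library 2, triangles for library 3 and a line through the mean of both; every axis starts at 0. Lmod2 lies between 12.8 and 21.4 FPKM at all later times, above its 0h libraries (7.60 and 8.91), while Actc1, Casq1, Eno3 and Apobec2 are lowest at 48h.

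At the Z disc, which anchors thin filaments, and along titin, 1 of 11 genes was lower at 12h, 4 at 24h and 5 at 48h. Ldb3, which encodes the Z disc protein cypher, had 110.1 and 100.2 FPKM at 0h, 58.0 and 77.2 at 6h, 60.4 and 58.0 at 12h, 61.7 and 46.7 at 24h, and 30.3 and 26.6 at 48h. It was below the 0h pair throughout, passed at 24h (adjusted p = 0.0208) and 48h (log2 fold change -1.85 with SE 0.17, adjusted p = 0.000341), and fell between these times (log2 fold change -0.90, adjusted p = 0.0298). Myoz1, a calsarcin of fast fibres that tethers calcineurin to the Z disc, had 188 and 184 FPKM at 0h, 123 and 101 at 6h, 85.3 and 123 at 12h, 111 and 103 at 24h, and 59.3 and 67.4 at 48h. It passed at 24h and 48h (log2 fold change -1.54 with SE 0.17, adjusted p = 0.000921 at 48h). Smpx, a small protein of the muscle cell periphery, had 33.9 and 28.2 FPKM at 0h, 22.5 and 20.2 at 6h, 17.2 and 20.5 at 12h, 22.3 and 17.7 at 24h, and 13.7 and 14.2 at 48h. Its later libraries were all below the 0h pair, and it passed at 48h (log2 fold change -1.09 with SE 0.15, adjusted p = 0.00276). Tcap, telethonin, which caps titin at the Z disc, had 518 and 455 FPKM at 0h, 464 and 363 at 6h, 206 and 341 at 12h, 262 and 150.2 at 24h, and 180.3 and 159.5 at 48h. It overlapped 0h at 6h and was lower in the 6 libraries after that, passing at 24h and 48h (log2 fold change -1.51 with SE 0.28, adjusted p = 0.0102 at 48h). That 48h call was lost without either 0h library or 48h library 3, with adjusted p up to 0.0832.

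Titin had the only call of this group at 12h. Ttn, the molecular spring between Z disc and M band, had 6.01 and 5.51 FPKM at 0h, 3.11 and 4.48 at 6h, 2.50 and 3.05 at 12h, 3.02 and 3.09 at 24h, and 3.42 and 3.40 at 48h. It was lowest at 12h and passed at 12h, 24h and 48h, with log2 fold changes of -0.84 (adjusted p = 0.0459), -0.74 (adjusted p = 0.0431) and -0.62 (adjusted p = 0.0464). Each of these calls was lost in 8 of 10 fits that left out 1 library, and was kept only when a 6h library was left out. Actn3, the alpha-actinin of fast fibres, had 192 and 225 FPKM at 0h, 59.9 and 141 at 6h, 67.2 and 136 at 12h, 68.7 and 87.4 at 24h, and 104 and 73.5 at 48h. All later libraries lay below the 0h pair, but the libraries of 6h and those of 12h were further apart than the 0h pair, and no time passed (log2 fold change -1.24 with SE 0.40, adjusted p = 0.083 at 48h). Actn2, the alpha-actinin of all fibres, had 49.4 and 26.1 FPKM at 0h, 37.1 and 36.5 at 6h, 38.1 and 29.2 at 12h, 42.6 and 34.1 at 24h, and 22.2 and 27.7 at 48h, with overlapping groups at every time. Des, desmin, the intermediate filament that links Z discs and is also made by smooth muscle, had 164 and 126 FPKM at 0h, 117 and 116 at 6h, 110.4 and 164 at 12h, 151 and 176 at 24h, and 206 and 191 at 48h. Both 48h libraries lay above both 0h libraries, without passing (log2 fold change 0.46, SE 0.19, adjusted p = 0.167). Myom1 and Myom2, crosslinkers of the M band, and Myot, myotilin of the Z disc, had log2 fold changes at 48h of -0.34, -0.55 and -0.77 and passed at no time.

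Of the 9 calcium handling genes, 1 was lower at 12h, 4 at 24h and 5 at 48h. Casq1, Pvalb, Jph2, Atp2a1 and Trdn passed as lower at 48h. Ryr1, the release channel, and Cacna1s, its voltage sensor, were also below the 0h pair in all later libraries but did not pass against 0h. Whether the genes that passed fell more than those that did not was not tested. Casq1, the calsequestrin that holds calcium inside the reticulum of fast fibres, had 235 and 236 FPKM at 0h, 83.6 and 125 at 6h, 60.3 and 100.4 at 12h, 65.1 and 59.2 at 24h, and 39.6 and 36.5 at 48h. The 0h libraries were nearly equal, all later libraries were below them, and 12h (log2 fold change -1.59 with SE 0.23, adjusted p = 0.0212), 24h (adjusted p = 0.00501) and 48h (log2 fold change -2.60 with SE 0.23, adjusted p = 0.000323) passed. Its promoter is shown as that of the calcium gene with the largest fall at 48h (minus strand of GRCm38.p6, chr1:172219946-172220145, the same window and capitals).
Casq1: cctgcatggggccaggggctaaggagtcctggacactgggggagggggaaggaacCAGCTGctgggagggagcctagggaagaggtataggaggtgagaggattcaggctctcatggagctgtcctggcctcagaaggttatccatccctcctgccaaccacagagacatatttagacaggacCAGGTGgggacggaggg
It held 2 E-boxes, 195 to 190 and 67 to 62 bases before the start, and no match to the MEF2 or CArG box. Pvalb, parvalbumin, which soaks up calcium in the cytosol of fast fibres, had 1252 and 1396 FPKM at 0h, 418 and 702 at 6h, 380.1 and 779 at 12h, 405 and 386 at 24h, and 288 and 268 at 48h. It was below the 0h pair in each later library and passed at 24h (adjusted p = 0.021) and 48h (log2 fold change -2.25 with SE 0.31, adjusted p = 0.00262). Jph2, junctophilin 2, which holds the reticulum close to the surface membrane, had 28.2 and 38.6 FPKM at 0h, 10.4 and 17.3 at 6h, 12.3 and 16.5 at 12h, 11.2 and 13.5 at 24h, and 8.08 and 7.14 at 48h. It passed at 24h (adjusted p = 0.0197) and 48h (log2 fold change -1.98 with SE 0.24, adjusted p = 0.00125).

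Atp2a1, the SERCA1 pump that refills the reticulum of fast fibres, had 593 and 559 FPKM at 0h, 267 and 491 at 6h, 272 and 424 at 12h, 298 and 308 at 24h, and 237 and 283 at 48h. All later libraries were lower than the 0h pair, and 48h alone passed (log2 fold change -1.15 with SE 0.27, adjusted p = 0.0293); that call was lost when either 0h or either 48h library was left out, with adjusted p up to 0.14. Exons of Rabep2 on the other strand, at 12.1 to 17.2 FPKM, cover 21.9% of its exon bases. Trdn, triadin, which links calsequestrin to the release channel, had 7.67 and 11.1 FPKM at 0h, 7.31 and 8.14 at 6h, 4.62 and 5.11 at 12h, 4.77 and 4.78 at 24h, and 4.09 and 5.49 at 48h. Except for 6h library 3, its later libraries were below the 0h pair. It passed at 24h (adjusted p = 0.0395) and 48h (log2 fold change -0.83 with SE 0.18, adjusted p = 0.0208), the 48h call being lost without 0h library 3 or 48h library 2 (adjusted p up to 0.128). Ryr1, the release channel, and Cacna1s, the voltage sensor that opens it, were below the 0h pair in all later libraries, at 11.0 and 9.57 FPKM at 48h, against 18.3 and 18.6 at 0h, for Ryr1, and 6.44 and 6.79 at 48h, against 8.87 and 10.3 at 0h, for Cacna1s. Neither passed (adjusted p = 0.0597 and 0.225 at 48h), nor did Jph1, junctophilin 1 (adjusted p = 0.0867). Cacng1, the gamma subunit of the same voltage sensor, had 22.3 and 20.5 FPKM at 0h, 19.9 and 18.5 at 6h, 9.12 and 14.3 at 12h, 29.4 and 23.0 at 24h, and 35.7 and 30.8 at 48h. It was below the 0h pair in all 4 libraries of 6h and 12h and lay above it in all 4 libraries of 24h and 48h, and it passed the F test over all times (adjusted p = 0.0131) but no comparison with 0h (log2 fold change 0.61 with SE 0.19, adjusted p = 0.0815 at 48h).

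Of 7 genes of energy supply, 1 was lower at 12h, 6 at 24h and 6 at 48h. All 7 log2 fold changes were below 0 from 6h on, with medians of -0.71, -0.90, -0.98 and -1.43 at the 4 later times in order. Eno3, the muscle enolase of glycolysis, had 469.6 and 416 FPKM at 0h, 249 and 239 at 6h, 216 and 259.5 at 12h, 251 and 211 at 24h, and 103 and 119 at 48h. Its values were alike at 6h, 12h and 24h and lower again at 48h (log2 fold change -1.99 with SE 0.14, adjusted p = 0.000168 against 0h; log2 fold change -1.04, adjusted p = 0.0098 against 24h), the smallest adjusted p of the 45 genes in both comparisons. Pygm, the muscle glycogen phosphorylase, had 196 and 176 FPKM at 0h, 85.7 and 149.5 at 6h, 93.7 and 121 at 12h, 90.9 and 83.7 at 24h, and 68.4 and 77.2 at 48h. Pfkm, the muscle phosphofructokinase, had 117 and 102 FPKM at 0h, 74.9 and 85.2 at 6h, 61.7 and 57.0 at 12h, 70.2 and 44.8 at 24h, and 44.6 and 49.0 at 48h. Both enzymes of glucose use were below their 0h pair in every later library, and both passed at 24h and 48h. At 48h the log2 fold changes were -1.34 for Pygm (SE 0.23, adjusted p = 0.00677, and 0.0617 without 0h library 2) and -1.21 for Pfkm (SE 0.19, adjusted p = 0.00468).

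Ckm, the muscle creatine kinase that buffers ATP, had 2288 and 1944 FPKM at 0h, 929.7 and 1178 at 6h, 845 and 1293 at 12h, 1059 and 1078 at 24h, and 738 and 834 at 48h. It passed at 24h (adjusted p = 0.0321) and 48h (log2 fold change -1.43 with SE 0.20, adjusted p = 0.00323). Ampd1, the muscle AMP deaminase, had 24.3 and 30.2 FPKM at 0h, 9.83 and 17.4 at 6h, 5.57 and 12.9 at 12h, 4.31 and 5.41 at 24h, and 5.06 and 3.87 at 48h. It passed at 24h (log2 fold change -2.27 with SE 0.34, adjusted p = 0.0108) and 48h (log2 fold change -2.37 with SE 0.34, adjusted p = 0.00315), with 24h and 48h libraries at like levels. Apobec2, a muscle protein of the cytidine deaminase family, had 175 and 93.3 FPKM at 0h, 125 and 111 at 6h, 82.4 and 63.7 at 12h, 53.2 and 25.6 at 24h, and 10.5 and 12.3 at 48h. The 0h libraries were far apart, the 6h libraries lay between them, and all libraries from 12h on were lower. It passed at 24h (adjusted p = 0.0264) and 48h (log2 fold change -3.38 with SE 0.34, adjusted p = 0.000554), and fell between them (log2 fold change -1.62, adjusted p = 0.0422). Mb, myoglobin, the oxygen store of oxidative fibres, had 394 and 211 FPKM at 0h, 432 and 172 at 6h, 136 and 151 at 12h, 391 and 172 at 24h, and 215 and 190.2 at 48h. Library 2 was far above library 3 at 0h, 6h and 24h, and no time passed (log2 fold change -0.51 with SE 0.46, adjusted p = 0.54 at 48h). Exons of antisense genes cover 31.9% of the exon bases of Mb and 15.5% of those of Ckm.

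Fast and slow isoforms were then set against each other. Of 14 genes of fast fibres, all tested, 0 passed at 6h (limma; 11 had an unadjusted p under 0.05). At 12h 6 were lower (0.8% of all genes), at 24h 8 (1.94%), and 12 at 48h (4.12%), 10 passed the F test (7.35%), and none was higher. Their median log2 fold changes were -0.87, -1.06, -1.08 and -1.47. Of 5 genes of slow fibres 3 were tested, Tnnt1, Tnni1 and Mybpc1, and 0 of 3 passed at any time or in the F test (limma; 0, 1, 0 and 1 of them had an unadjusted p under 0.05 at 6h, 12h, 24h and 48h), with medians of -0.30, -0.27, -0.05 and -0.51. Of 7 slow fibre genes outside the muscle genes described here 4 were tested. At 48h 1 of these 4 passed as lower, 3 had a log2 fold change below 0 and 1 above, and the lowest was -0.72. At 6h, 12h and 24h 0 passed (limma; 1, 2 and 1 had an unadjusted p under 0.05), as in the F test. Their medians were 0.27, -0.41, -0.22 and -0.11. The FPKM summed over the 14 fast genes was 5504 to 5986 at 48h, against 14288 to 14980 at 0h. That over the first 5 slow genes was 40.2 to 41.5 at 48h, against 38.2 to 66.0 at 0h. The slow isoforms among these 5 were thus scarce in these samples at all times.

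The test of a fast against a slow change was the log2 ratio of paralogues within a library, log2((fast FPKM + 1)/(slow FPKM + 1)), in which the amount of muscle cancels where both genes are made only there. Over 10 pairs, an exact permutation test of the 10 libraries among the 5 times (945 partitions, smallest possible p 0.00106, one-sided for large differences between times) gave 2 pairs with an unadjusted p under 0.05 and 0 after Benjamini-Hochberg adjustment over the 10 pairs. A p that misses the threshold does not show that the ratios stayed alike. The log2 ratio of Casq1 to Casq2, the calsequestrin of slow fibres and heart, was 5.55 and 5.79 at 0h, 4.42 and 5.24 at 6h, 4.47 and 5.33 at 12h, 4.43 and 4.16 at 24h, and 3.99 and 3.58 at 48h (exact p = 0.0508, adjusted p = 0.169). Casq2 reached at most 4.05 FPKM, so with 1 added this ratio understates the changes of Casq2. The log2 ratio of Atp2a1 to Atp2a2, the pump of slow fibres that most other cells also make, was 4.42 and 3.91 at 0h, 2.89 and 3.59 at 6h, 3.04 and 3.75 at 12h, 3.27 and 3.42 at 24h, and 3.0 and 3.10 at 48h (exact p = 0.15, adjusted p = 0.301). In these 2 pairs all 8 later libraries lay below both 0h libraries, as they did for Myh4/Myh7 (exact p = 0.0349, adjusted p = 0.169) and Tnnc2/Tnnc1 (exact p = 0.0772, adjusted p = 0.193). The 2 pairs with an unadjusted p under 0.05 were Myh4/Myh7 and Myl1/Myl3. Myh7, Myl3 and Tnnc1 reached at most 0.0652, 1.21 and 1.10 FPKM, so with 1 added those 3 ratios follow the level of the fast gene, the amount of muscle does not cancel in them, and they do not compare fast with slow fibres. The amount of muscle does not cancel in Atp2a1/Atp2a2 either, since most other cells also make Atp2a2.

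The ratio of Myl1 to Myl3, the slow essential light chain, was 9.56 and 10.27 at 0h, 9.68 and 9.67 at 6h, 9.26 and 9.72 at 12h, 9.06 and 8.81 at 24h, and 7.83 and 8.84 at 48h (exact p = 0.0296, adjusted p = 0.169). The ratio of Mybpc2 to Mybpc1 was 1.54 and 2.21 at 0h, 0.21 and 1.92 at 6h, 1.22 and 1.78 at 12h, 0.43 and 0.63 at 24h, and 0.67 and 0.24 at 48h (exact p = 0.253, adjusted p = 0.422). It was below the 0h pair in 6 of 8 later libraries. For Tnni2/Tnni1 (exact p = 0.378, adjusted p = 0.54) and Actn3/Actn2 (exact p = 0.44, adjusted p = 0.55) 6 of 8 later libraries were below the 0h pair. Actn2 is made in all fibres, so Actn3/Actn2 does not compare fast with slow fibres. For Tnnt3/Tnnt1 (exact p = 0.675, adjusted p = 0.75) and Mylpf/Myl2 (exact p = 0.943, adjusted p = 0.943) the 0h libraries themselves were far apart, at 7.32 and 9.09 and at 8.23 and 11.01. Myl2, the slow regulatory light chain, had 6.24 and 0 FPKM there. It reached 1 FPKM in 1 library only. With 1 added, the ratio in the other libraries follows the level of Mylpf and does not compare fast with slow fibres.

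**Figure D4:**
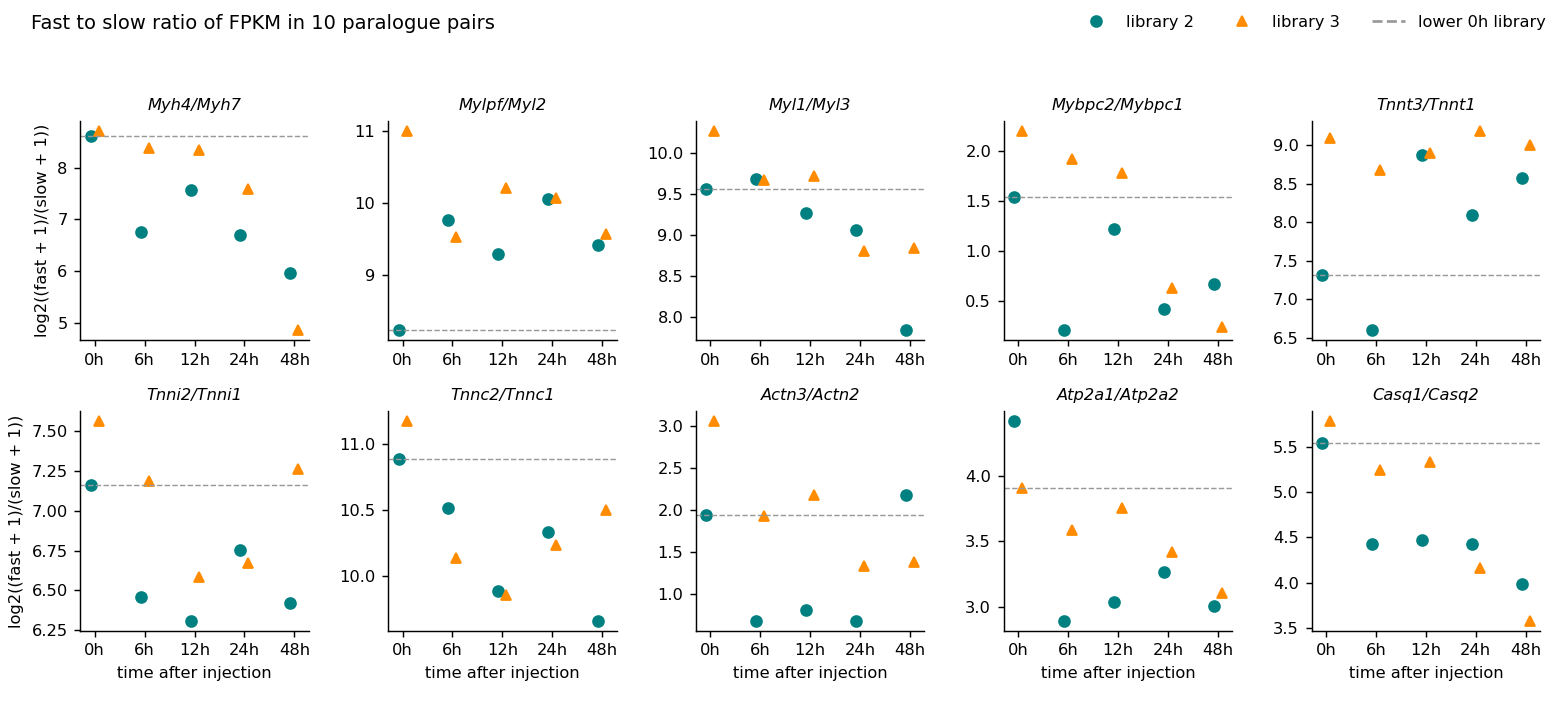
Log2 ratio of fast to slow FPKM, each with 1 added, in each library for 10 paralogue pairs by time, with circles for library 2, triangles for library 3 and a dashed line at the lower 0h library. Actn2 stands in the place of the slow gene but is made in all fibres. In Casq1/Casq2, Atp2a1/Atp2a2, Myh4/Myh7 and Tnnc2/Tnnc1 all 8 later libraries lie under the line, and in Tnnt3/Tnnt1 and Mylpf/Myl2 the 0h libraries are wide apart.

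To ask which of the 45 genes moved apart from muscle RNA in general, the median log2(FPKM + 1) of 53 tested muscle genes outside the list was subtracted in each library and the fit was repeated. That median was 2.94 and 3.20 at 48h, against 3.86 and 3.95 at 0h. Large shares of all genes counted as higher on this scale, which makes the Benjamini-Hochberg adjustment lenient, and Bonferroni p-values over all genes were added after seeing this. The subtracted median, 3.14 and 3.64 at 6h, is 1 value per library, so its error is shared by all genes. The median prior degrees of freedom, the weight given to the spread of other genes, were 21.2, against 4.92 on the scale of the table. The p-values on this scale can therefore be too small, and a Bonferroni adjustment does not mend that. On this relative scale the genes' median log2 fold change at the 4 later times in order was -0.10, -0.21, -0.22 and -0.26, beside 0.56, 0.56, 0.49 and 0.82 for all genes. With the adjusted p, 2 genes were higher and 2 lower at 6h (43.0% and 0.161% of all genes, 43.1% in both directions). At 12h 1 was higher and 4 lower (43.3% and 0.352%, 43.7% in both). At 24h 4 were higher and 7 lower (26.9% and 0.418%, 27.3% in both). At 48h 5 were higher and 13 lower (83.5% and 0.69%, 84.2% in both), and the F test called 16 (64.0%). The count of 4 at 6h became 16 when 6h library 3 was left out, 1 when 6h library 2 was left out and 2 when 0h library 3 was left out. The count of 5 at 12h became 2 when 12h library 2 was left out, and that of 11 at 24h became 17 when either 6h library and 7 when either 24h library was left out.

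With the Bonferroni p, which keeps the limit of the shared error, 2 of the 45 were higher and 5 lower at 48h (5.72% and 0.103% of all genes). The lower genes were Actc1, with a relative log2 fold change of -3.19 (SE 0.34, Bonferroni-adjusted p = 8.92e-06), Apobec2 with -2.55 (SE 0.31, Bonferroni-adjusted p = 0.000131), Myh4 with -2.45 (SE 0.40, Bonferroni-adjusted p = 0.025), Myh2 with -2.27 (SE 0.36, Bonferroni-adjusted p = 0.0185) and Casq1 with -1.77 (SE 0.27, Bonferroni-adjusted p = 0.00969). The higher genes were Lmod2 with 1.71 (SE 0.22, Bonferroni-adjusted p = 0.00034) and Myh1 with 2.22 (SE 0.38, Bonferroni-adjusted p = 0.0488). Lmod2 also passed at 6h, with 1.70 (SE 0.22, Bonferroni-adjusted p = 0.000348), where 0.455% of all genes were higher, and at 12h, with 1.61 (SE 0.22, Bonferroni-adjusted p = 0.000947), where 0.594% were. At 24h none of the 45 passed the Bonferroni threshold (1.02% of all genes higher and 0.0367% lower; limma, with 4 higher and 7 lower by the adjusted p). The F test called Actc1, Myh2, Apobec2 and Lmod2 by the Bonferroni p (2.34% of all genes). The fast troponins, which had fallen on the scale of the table, did not pass on this scale, with relative log2 fold changes at 48h given for Tnnt3 (-0.25, adjusted p = 0.437), Tnni2 (-0.20, adjusted p = 0.535) and Tnnc2 (-0.36, adjusted p = 0.299). By the adjusted p alone Cacng1 (1.44, adjusted p = 0.000121), Des (1.29, adjusted p = 0.000711) and Mybpc1 (0.85, adjusted p = 0.0101) were higher at 48h. The call of Mybpc1 was lost without 0h library 3 or 48h library 2 (adjusted p up to 0.118).

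**Figure D5:**
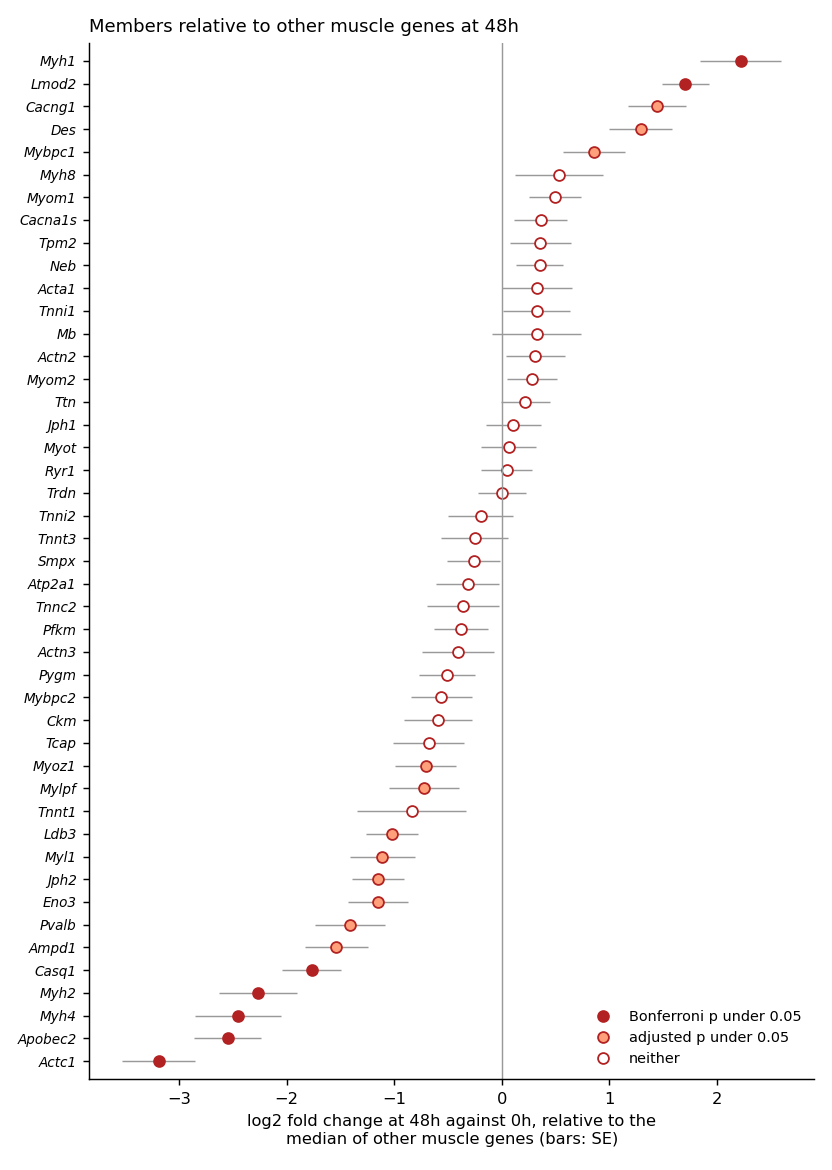
Log2 fold change of the 45 tested muscle genes at 48h against 0h after subtracting the median of 53 other muscle genes in each library, with bars for the standard error. Dark points passed the Bonferroni threshold, pale ones the adjusted p alone and open ones neither: Myh1 (2.22) and Lmod2 (1.71) lie at the top and Actc1 (-3.19) at the bottom.

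The 57 other muscle genes, a list that holds further sarcomere, reticulum, metabolic and regulatory genes, held more genes that fell than rose. Of 53 tested, 0 passed at 6h (limma, with 31 at an unadjusted p under 0.05). At 12h 15 were lower and 1 higher (0.8% and 0.279% of all genes), and at 24h 16 lower and 5 higher (1.94% and 1.37%). At 48h 24 were lower and 4 higher (4.12% and 4.8%), and 28 passed the F test (7.35%). Their median log2 fold changes were -0.51, -0.76, -0.55 and -0.68. The 4 with the smallest F test p were all lower. Hrc, which binds calcium in the reticulum, had 5.77 and 7.97 FPKM at 48h, against 37.8 and 36.5 at 0h (log2 fold change -2.29, adjusted p = 0.000308). Srl, sarcalumenin, another calcium-binding protein of the reticulum, had 6.34 and 6.45 at 48h, against 20.9 and 20.9 at 0h (-1.56, adjusted p = 0.000284). Fabp3, a fatty acid carrier of oxidative muscle, had 17.3 and 16.3 at 48h, against 92.1 and 73.0 at 0h (-2.22, adjusted p = 0.000252), and Phkg1, the catalytic subunit of muscle phosphorylase kinase, had 2.90 and 2.80 at 48h, against 14.1 and 16.0 at 0h (-2.06, adjusted p = 0.000554). Of these, Hrc, Srl and Phkg1 fell beside the calcium store and the glycogen enzymes described above.

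Markers of other cells in the sample differed between times and libraries as well. Of 9 smooth muscle markers 0 passed at 6h and 12h (limma; 1 and 2 had an unadjusted p under 0.05), 7 of 9 had a log2 fold change below 0 at each of these times, and 1 was lower at 48h, Tagln (adjusted p = 0.0367). Their summed FPKM was 456 to 544 at 0h, 372 to 412 at 6h, 395 to 401 at 12h, 509.9 to 523 at 24h and 443 to 509.9 at 48h. It lay below both 0h libraries at 6h and 12h, together with the skeletal muscle genes, and not at 24h. The 9 markers include Des, which is also one of the muscle genes described above. Des had 164 and 126 FPKM at 0h and 206 and 191 at 48h. With Des taken out, the sum in both 48h libraries lay below that in both 0h libraries. Of the 9 markers, Des included, 5 had a log2 fold change above 0 at 48h and 4 below (median 0.32). Of 12 adipocyte markers 1 was lower and 10 had a log2 fold change below 0 at 12h (median -0.67), and their summed FPKM was 2625 and 2581 at 12h, against 2638 and 3365 at 0h. At 48h 1 adipocyte marker was lower and 1 higher.

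Of 9 epidermal and follicle markers 6 were higher at 48h (4.8% of all genes), and their summed FPKM was 11278 to 12414 at 48h, against 5432 to 6228 at 0h. It was 5981 to 6251 at 6h and 4919 to 5204 at 12h, when the summed muscle FPKM was already lower. Red blood cell and dermal fibroblast markers also differed between libraries of a time. Summed red cell FPKM was 55.1 and 153 at 0h, 266 and 554 at 6h, 340.5 and 25.9 at 12h, 423 and 24.3 at 24h, and 20.7 and 17.0 at 48h. Summed fibroblast FPKM was 1270.1 and 1416 at 0h, 1526 and 1832 at 6h, 1425 and 829 at 12h, 953 and 1541 at 24h, and 1245 and 1844 at 48h. Of 8 endothelial markers 1 was higher at 48h. FPKM is a share of the library, and the part of these cells in the muscle values was not tested.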

How the data were processed

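The deposited values are FPKM per gene, in a table of 24358 rows and 10 columns made by the authors. TopHat2 2.1.1 and Cufflinks 2.2.1 are named in the submitters' processing notes, with the build mm10. The annotation and strand setting were not given in the sources used here, nor was a normalisation across libraries. The header names no unit, and FPKM was inferred from Cufflinks and from the values. In 27 rows the symbol had become a date, and these were left out. The columns carry replicate numbers 2 and 3 and the labels 1 and 2, so columns were tied to times, not to samples.

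All 10 libraries entered 1 limma fit (limma 3.58.1, R 4.3.3) of log2(FPKM + 1) with 1 mean per time, an intensity trend and 5 residual degrees of freedom; this scale understates changes of low genes. The fit was checked on simulated data. The genes, lists, pairs and tests were chosen with earlier results of these data known. Values per library are given for genes that passed, for the pairs and for up to 2 genes per role far from the rest, and up to 4 other muscle genes are named by F test p; Acta1, Ryr1, Cacna1s and a few genes named in passing were added after their values were seen. Alternatives were pseudocounts of 0.1 and 5, filters, scalings, no trend, 2 times alone, a replicate block and each library left out. Gene positions and shared sequence came from GENCODE M21 (GRCm38), promoters from RefSeq (35 of 47 genes matched), and pair tests from numpy 2.4.6. Absolute depth is unknown from FPKM.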

Additional observations from a re-analysis of the deposited data

How the results depend on the processing

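Of 62 calls of single genes in comparisons of times on the scale of the table, 19 were kept in every alternative tried, all of them at 48h, and none changed direction. Counts of passing genes moved by over 1.5 times in these settings. Without the filter on low values they were 0 (6h), 0 (12h), 4 (24h), 1 between 24h and 48h and 12 in the F test. Median-of-ratios scaling gave 4 at 12h, 11 at 24h and 2 between 24h and 48h, with and without the muscle genes in the scaling. A fit without the intensity trend gave 2 between 24h and 48h, and 6h fitted with 0h alone gave 2. The numbers of the columns did not pair the libraries (correlations of their differences between times from -0.10 to 0.22), and a replicate block gave 7 at 6h, 20 at 12h and, relative to other muscle genes, 17 at 24h. Leaving out 1 library gave 0 to 1 (6h), 0 to 17 (12h), 0 to 24 (24h), 20 to 29 (48h), 0 to 5 between 24h and 48h, 0 for the other steps and 12 to 28 in the F test.

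Relative to other muscle genes, leaving out 1 library gave 1 to 16 (6h), 2 to 7 (12h), 7 to 17 (24h), 15 to 23 (48h) and 12 to 22 in the F test. A pseudocount of 0.1 gave 2 at 6h. The genes' own median as the centre gave 9 at 12h, 18 at 24h and 27 in the F test, and turned Mylpf (0.0013) and Myoz1 (0.018) at 48h. Without 6h library 2, Myh1 at 6h was -0.0089, and without 6h library 3 it was 1.87. Bonferroni p-values, chosen after seeing the data, gave 1 (6h), 1 (12h), 0 (24h), 7 (48h) and 4 in the F test. No paralogue pair passed in any alternative (adjusted p from 0.0688 to 0.978). Median-of-ratios scaling moved the summed FPKM to 11850 at 6h, against 12591 unscaled, and to 12793 at 24h, against 12185. The cause of these shifts was not tested. Depth is known only as a rough relative estimate, which limits the genes under a few FPKM, such as Actc1 at 48h, Tnnt1 and Myh8.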

Other observations

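A small set of muscle genes outside the 47 rose while others fell; they were picked after their values were seen. Hspb7, a small heat shock protein of muscle that binds filamin, had 17.8 and 11.1 FPKM at 0h, 25.7 and 37.3 at 6h, 46.8 and 57.4 at 12h, 72.5 and 73.8 at 24h, and 47.7 and 46.0 at 48h, and passed at 12h, 24h and 48h (log2 fold change 1.67 with SE 0.22, adjusted p = 0.0021 at 48h, limma). Csrp3, the muscle LIM protein of the Z disc, had 57.7 and 37.5 FPKM at 0h, 72.9 and 78.9 at 6h, 145 and 82.5 at 12h, 243 and 189.9 at 24h, and 71.5 and 61.3 at 48h, peaking at 24h, where it passed (log2 fold change 2.18 with SE 0.26, adjusted p = 0.00501). Pdlim3, a PDZ and LIM protein of the Z disc, had 74.5 and 71.3 FPKM at 0h, 45.3 and 50.3 at 6h, 65.2 and 104 at 12h, 196 and 151 at 24h, and 143 and 151 at 48h, and passed at 24h and 48h (log2 fold change 1.23 with SE 0.20, adjusted p = 0.015 at 24h). Mybph, a relative of myosin binding protein C, had 9.69 and 11.7 FPKM at 0h, 7.45 and 11.4 at 6h, 20.9 and 48.1 at 12h, 30.6 and 55.3 at 24h, and 18.6 and 11.3 at 48h, and passed at 24h (log2 fold change 1.85 with SE 0.39, adjusted p = 0.0349).

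Myf6, a myogenic transcription factor of mature fibres, had 9.04 and 6.78 FPKM at 0h, 15.4 and 21.9 at 6h, 17.0 and 41.3 at 12h, 28.8 and 30.2 at 24h, and 17.9 and 25.1 at 48h, and passed at 24h and 48h (log2 fold change 1.33 with SE 0.34, adjusted p = 0.0407 at 48h). Chrna1, the acetylcholine receptor subunit of the neuromuscular junction, had 0.827 and 0.694 FPKM at 0h, 0.541 and 0.276 at 6h, 0.0840 and 0.451 at 12h, 2.45 and 1.33 at 24h, and 7.60 and 4.46 at 48h. It passed at 48h (limma; log2 fold change 1.96 with SE 0.27, adjusted p = 0.00277). Chrna1 reached 1 FPKM only at 24h and 48h, so it entered the test through the times at which it was high. Its call is therefore no separate support for the rise. Of 5 satellite cell markers 2 were tested and both were higher at 48h (4.8% of all genes): Myod1 at 7.48 and 4.34 FPKM at 48h, against 0.857 and 1.29 at 0h (adjusted p = 0.0474), and Cdh15 at 5.01 and 3.0, against 1.08 and 1.04 (adjusted p = 0.0094). Pax7, which defines resting satellite cells, stayed at or under 0.0973 FPKM in every library.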
